A study of Mus musculus with 4 samples.

Results

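The Slc4a3 window is a 50 kb stretch of mouse chromosome 1, from 75520001 to 75570000 in build mm9, that ends 40 kb before a contact domain boundary placed after 75610000 on the wild-type map. It consists of 5 bins of 10 kb out of the 1000 bins of a 10 Mb map (71000001 to 81000000). They were chosen by their position, with earlier results of these data known. The bins form 4979 of the 500500 pairs of the map when partners closer than 20 kb are left out. Of these pairs, 2284 have their partner up to the boundary and 2695, or 54.1%, beyond it. The maps came from capture Hi-C of distal limb buds collected at E11.5, a method that counts ligations between crosslinked genome segments after probes have enriched 1 region. There were 4 libraries, 1 for each of the genotypes WT, DelB, DelBs and InvF, all sampled from the same tissue at the same stage. The labels give these genotype names without strain, zygosity or the number of embryos behind a library. Contact maps of genomic DNA hold no expression, so the labelled tissue could not be checked against marker genes.

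Chromosomes of vertebrates are partitioned into contact domains, stretches within which segments meet more often than they meet segments outside, and the change from one domain to the next is called a boundary. Deletions and inversions can remove a boundary, move it or bring the flanks of a domain together, and genes near the new junctions can then meet enhancers of a neighbouring domain. Slc4a3 encodes an anion exchanger of the plasma membrane that swaps chloride for bicarbonate and is best known from heart and nervous tissue. Epha4 encodes an ephrin receptor tyrosine kinase with a known role in limb patterning, Pax3 a transcription factor of muscle and neural crest progenitors, and Wnt6 and Ihh secreted signalling proteins. From the published description of these mice, Wnt6 and Ihh lie on the left of the window (lower coordinates), Epha4 lies in the stretch that both deletions remove, and Pax3 lies beyond it. These positions, and that of Slc4a3 itself, were not checked in mm9 for want of an mm9 annotation. In the RefSeq gene order of GRCm38, 25 protein-coding genes lie between Ihh and Slc4a3 and 31 between Wnt6 and Slc4a3, while 0 lie between Slc4a3 and Epha4 and 0 between Epha4 and Pax3. The window therefore represents the last gene of a crowded stretch, with Stk11ip, Inha and Obsl1 as its nearest neighbours, at the edge of a stretch that holds no other protein-coding gene up to Epha4.

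The window is named for that last gene, and the sequence of the gene's promoter is shown for that reason. The 250 bases upstream of the RefSeq start of Slc4a3 lie at chr1:75546212-75546461 on the plus strand of GRCm38.p6, a different build from that of the maps, so the place was not carried over to mm9.

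Slc4a3 promoter: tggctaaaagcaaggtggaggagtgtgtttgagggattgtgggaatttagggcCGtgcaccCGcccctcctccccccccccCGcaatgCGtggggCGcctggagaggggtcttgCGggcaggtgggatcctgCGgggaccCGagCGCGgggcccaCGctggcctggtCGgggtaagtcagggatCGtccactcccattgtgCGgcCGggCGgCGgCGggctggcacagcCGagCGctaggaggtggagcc

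Capitals mark its 20 CpG dinucleotides. The stretch was 70% G and C, and 17.9% of 32851 mouse promoter stretches of the same length held as many CpG dinucleotides, against a median of 6. Bins of 10 kb do not resolve a promoter, so the contacts below are those of the whole window.

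The rearranged intervals were located on the maps. DelB lacked 1670 kb, from 76390001 to 78060000, and DelBs lacked 1470 kb, from 76390001 to 77860000, so that a segment of 200 kb was missing from DelB alone. InvF carried an inversion of 1070 kb, from 74830001 to 75900000, which turns the Slc4a3 window and the boundary together. On the InvF allele the window stands at the place of 75160001 to 75210000, 360 kb closer to the left breakpoint and as much farther from the right one. The order is reversed as well: partners left of the inversion then lie across the boundary from the window, and partners right of the inversion lie on the window's own side of it.

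Library totals were 5155274 (WT), 5543587 (DelB), 5832748 (DelBs) and 6073471 (InvF) counts. The Slc4a3 window took 42697, 55991, 57710 and 48389 of them in the same order, and its bins had between 1.10 and 1.66 times the median bin coverage of their library. Since each genotype has 1 library, the spread between embryos is unknown and p-values are left out. Intervals are at the 95% level and cover counting error alone, and all are exact except those of the ratios between the Slc4a3 window and its mirror window, which are approximate on the log scale. Ratios between libraries were scaled by the sum of counts over pairs that no rearrangement touched, which stood at 1.43 (DelB), 1.50 (DelBs) and 1.24 (InvF) times that of WT. The 3 mutant ratios share the WT library.

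In WT the Slc4a3 window met the stretch before the boundary more than the stretch just beyond it. At distances of 50 to 370 kb, where each partner beyond the boundary was set against the bin equally far on the other side, 3339 counts stood against 8296. The ratio was 0.402 (0.387 to 0.419), so partners on the window's own side were 2.48 times as frequent. All 5 bins lay below 1, with ratios of 0.461, 0.410, 0.419, 0.348 and 0.416 from left to right. The bin farthest from the boundary was the highest and the fourth bin the lowest, while the fifth, which is nearest to the boundary, did not continue an order. The boundary was itself found on this WT map, so the WT ratio describes it and is no separate evidence for it.

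Summed over the 5 bins, the side ratio kept this direction in the mutants and was higher in each. In DelB 5322 counts beyond the boundary stood against 11831, a ratio of 0.450 (0.435 to 0.465). In DelBs the ratio was 0.457 (0.442 to 0.472). In InvF 5796 counts stood against 10880, which gave 0.533 (0.516 to 0.550), the highest of the 4 libraries. By single bin the ratios ran from 0.404 to 0.509 in DelB, from 0.391 to 0.542 in DelBs and from 0.456 to 0.662 in InvF. The first bin of DelB went the other way, at 0.404 (0.367 to 0.445) against 0.461 (0.412 to 0.515) in WT. Both partners lie inside the inverted stretch at these distances, so they keep their distance to the window on all 4 alleles. The intervals of DelB and DelBs overlapped each other and lay above that of WT and below that of InvF. Whether these steps exceed the spread between embryos could not be measured.

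Along the border the Slc4a3 bins sat in the low stretch before the crossing. For 40 single bins, from 200 kb left to 200 kb right of the boundary, counts towards Epha4 at 50 to 300 kb were divided by counts towards Wnt6 at the same distances. In WT the 5 Slc4a3 bins had ratios of 0.639, 0.474, 0.446, 0.351 and 0.394. The fourth, starting at 75550001, was the lowest of the 40 bins in WT and in DelBs (0.394). In DelB and InvF the lowest bin was the one starting at 75450001, 70 kb left of the window, with ratios of 0.387 and 0.429. Left of the boundary, InvF was above WT in every bin except those starting at 75460001, 75470001 and 75600001. A higher ratio in InvF was thus not particular to the Slc4a3 bins. The first bin above 1 to the right of the window started at 75610001 in all 4 libraries, where WT had 1.01, DelB 1.11, DelBs 1.04 and InvF 1.07. In InvF, where the whole window is turned, partners were followed along the allele. From the bin starting at 75600001 on, the farthest InvF partners counted as towards Epha4 are therefore bins left of the inversion.

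**Figure D1:**
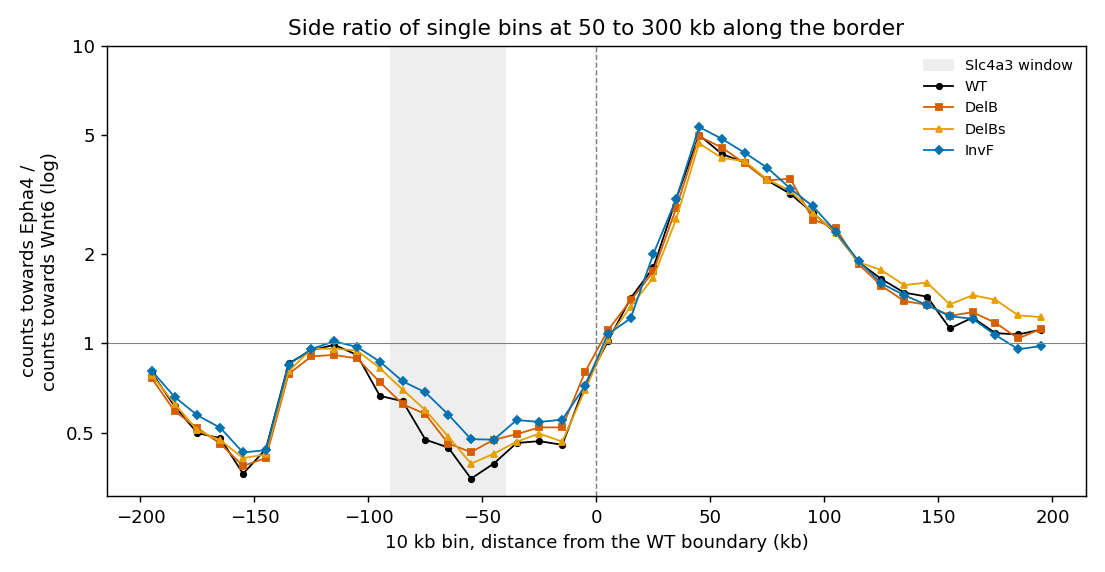
Side ratio of 40 single 10 kb bins (counts towards Epha4 over counts towards Wnt6 at 50 to 300 kb, log axis) against their distance from the WT boundary in kb, for 1 library of each genotype, with the Slc4a3 window shaded. The Slc4a3 bins lie between 0.351 and 0.639 in WT and between 0.474 and 0.745 in InvF, and all 4 lines cross 1 at the boundary. InvF partners follow the allele, so from the bin starting at 75600001 on the farthest ones counted as towards Epha4 lie left of the inversion.

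Farther from the window the WT ratio turned round. Over 250 to 290 kb it was 0.625 (0.556 to 0.701) and over 380 to 500 kb 0.961 (0.877 to 1.05), an interval that holds 1. At 510 to 650 kb it was 0.918 (0.844 to 0.998), just below 1. It then rose to 1.31 at 660 to 820 kb, 2.06 (1.92 to 2.22) at 830 to 1320 kb and 3.75 (3.45 to 4.08) at 1330 to 1820 kb. At 1830 to 2280 kb the partners on the Epha4 side held 2679 counts against 372 at the same distances on the other side, a ratio of 7.20 (6.46 to 8.05). The window that stood within the left domain at short range thus had most of its long-range contacts on the right. In the authors' balanced maps, which bring bins to equal coverage, the partners that both deletions later remove, at 830 to 2330 kb, had 3.07 times the signal of the other side, against 3.56 times in counts.

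**Figure D2:**
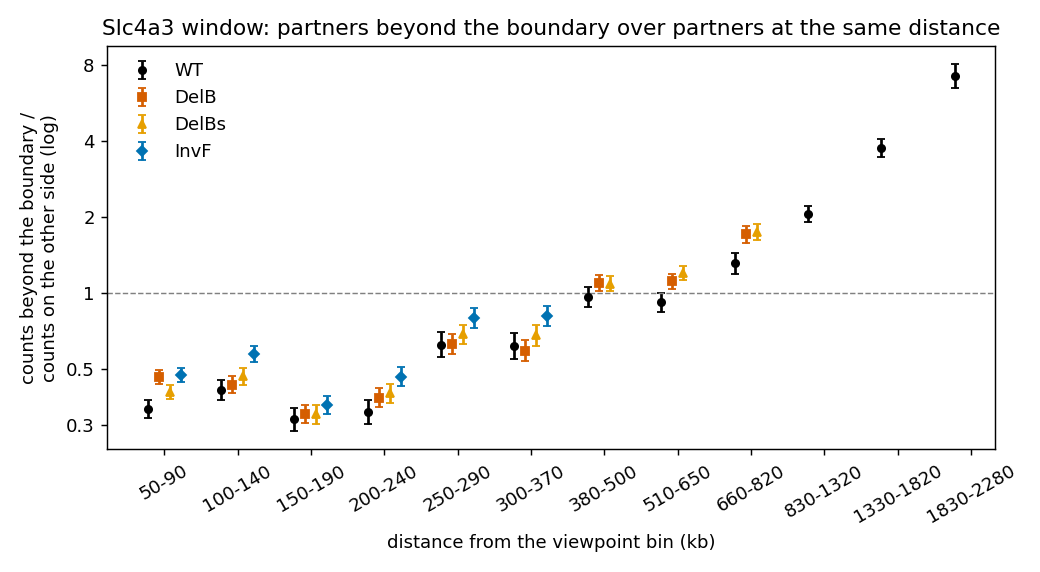
Counts beyond the boundary divided by counts equally far on the other side (log axis), by distance from the viewpoint bin in kb, with exact 95% counting intervals, for 1 library of each genotype. WT rises from 0.348 at 50 to 90 kb to 7.20 at 1830 to 2280 kb. The mutants are drawn only at distances that their rearrangement leaves as in WT.

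The counts showed the same turn as a plateau on the right. Going left from the window, WT counts for each 100 kb fell from 5781 at 75400001 to 819 at 75100001, 227 at 74500001 and 71 at 73600001. Going right they fell to 893 at 75700001, and the 21 windows from the end of the inverted stretch to 78000000 then stayed between 386 and 784 with a median of 498. The highest values within the later deleted stretch were 745 at 77400001 and 664 at 77500001, about 2 Mb from the window. Counts fell again to 235 at 78400001 and 63 at 78700001. Beyond the boundary lay 40.2% (39.8 to 40.7) of all WT counts of the window, 17183 of 42697.

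**Figure D3:**
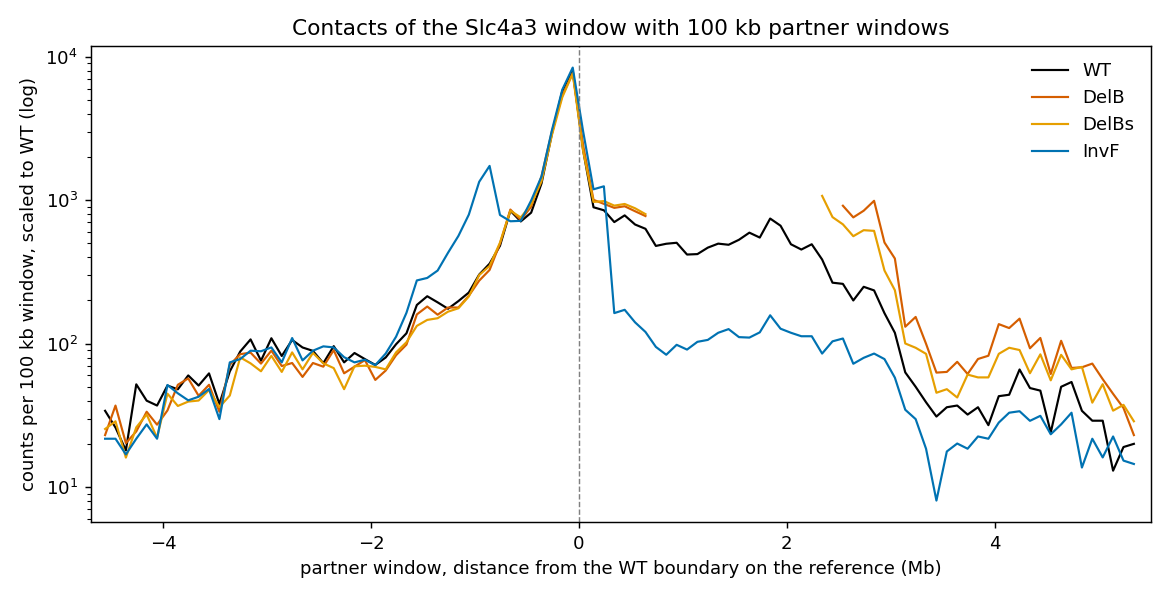
Counts of the Slc4a3 window with each 100 kb partner window, scaled to WT (log axis), against the distance of the partner from the WT boundary on the reference in Mb, for 1 library of each genotype. Windows that a deletion touches are not drawn for that library. InvF lies below WT from 0.3 Mb to about 3 Mb on the right and above it at 0.8 to 1.3 Mb on the left, and both deletions lie above WT right of their gap.

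Among 50 kb partners with the most WT counts over the level expected at their distance, those on the right stood out. The level expected was the average over pairs that no rearrangement touches, taken from the same library at the same distance on its allele. It is not corrected for coverage, which lifts all values of the well-covered Slc4a3 bins, and at long distances it rests on fewer pairs. The leading partners on the right were 77450001 to 77550000 with 6.72 times the expected counts (6.26 to 7.21), 77850001 to 77950000 with 6.76 times, and 78400001 to 78450000 with 6.59 times. On the left they were 72400001 to 72500000 with 2.99 times, 72600001 to 72650000 with 2.89 times, and 72800001 to 72900000 with 2.12 times. The left ones rested on 107, 64 and 106 WT counts, where each 50 kb partner needed at least 50. They stood little apart from their surroundings, since the 100 kb windows starting at 72300001 and 72500001 were at 2.84 and 1.83 times in WT. These partners were chosen on WT, so the WT values describe the choice. In InvF, which took no part in choosing, the 3 on the right had 2.09, 2.10 and 4.05 times the expected counts and the 3 on the left 2.05, 2.09 and 1.57 times. In DelB the partner starting at 78400001 had 3.96 times the expected counts (3.69 to 4.24) at its new distance.

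The deletions ask what the Slc4a3 window meets once the Epha4 stretch is gone. In both deletions it met the stretch beyond the gap, on the Pax3 side, several times as often as in WT. With the first 500 kb beyond the DelB deletion, 78060001 to 78560000, the window had 1128 counts in WT, 5936 in DelB and 4439 in DelBs. Scaled to WT these were 3.67 times (3.44 to 3.92) in DelB and 2.63 times (2.46 to 2.81) in DelBs. In DelBs the retained 200 kb segment, which lies closest to the new junction, gained to a similar degree, with 2940 counts against 760 and a ratio of 2.58 (2.39 to 2.80). DelB exceeded DelBs by 1.40 times (1.34 to 1.45) over the same 500 kb, which lie 200 kb closer on its allele. Once counts were divided by the level expected at each allele distance, that difference was 1.09 times (1.05 to 1.14).

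A shorter distance alone raises counts, so the bins brought in were set against the bins that stand at the same distance from the window in WT. In DelB the 500 kb brought to 830 to 1360 kb held 5936 counts, while the Epha4-side bins at those distances in WT held 2280. The scaled ratio was 1.82 (1.73 to 1.91). On the other side of the window the ratio at the same distances was 0.919 (0.848 to 0.995). In DelBs the retained segment, brought to 830 to 1060 kb, held 1.94 times (1.81 to 2.09) the scaled counts of the WT bins at those distances, while the other side was at 0.961 (0.859 to 1.08). For the following 500 kb in DelBs the ratio was 1.30 (1.23 to 1.37) and the other side 0.803 (0.736 to 0.876). The balanced maps gave 1.86 for DelB and 1.84 and 1.48 for DelBs. These ratios set the stretch brought in against other bins of WT. Set against the level expected at its distance on each allele, the same stretch went the other way. The first 500 kb beyond were at 4.64 times the expected counts in WT, from 2500 to 3030 kb, and at 2.43 times in DelB and 2.22 times in DelBs. The retained segment was at 5.70 times in WT and 2.42 times in DelBs, a ratio of 0.424 (0.392 to 0.460). Counts with the stretch on the Pax3 side thus rose in the deletions, but by less than the expected level did.

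Partners between the inverted stretch and the deletions, 75900001 to 76390000, are present in all libraries and keep their distance in the deletions. The window had 3222 counts with them in WT, 5720 in DelB and 6287 in DelBs, or 1.24 times (1.19 to 1.29) and 1.30 times (1.25 to 1.36) after scaling. The bins at the same distances on the other side stood at 1.04 (0.994 to 1.09) and 1.06 (1.01 to 1.11). Their right to left ratio was accordingly 1.04 (0.985 to 1.09) in WT, 1.23 (1.18 to 1.28) in DelB and 1.27 (1.23 to 1.32) in DelBs. With balanced maps these were 0.808, 0.958 and 1.03, so the order of the libraries stayed but the ratios of WT and DelB fell below 1.

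Left of the inverted stretch the deletions gave 0.872 times (0.836 to 0.908) and 0.847 times (0.812 to 0.882) the WT counts. These 2 ratios turned to 1.16 and 1.12 when libraries were scaled by all counts, so their direction rests on the scaling. In the deletions, all counts hold almost none from the deleted bins. In InvF, which lacks no bins, the factor from all counts was also the lower one, at 1.18 against 1.24. What sets the factors apart was not tested. Within the inverted stretch up to the boundary the ratios were 0.985 and 0.960, and 1.31 and 1.27 when scaled by all counts. Over the bins that no library lacks, the share of the window's counts beyond the boundary was 25.5% in WT, 36.8% in DelB and 34.4% in DelBs. Over all bins that each library carries, the shares were 36.8% (36.4 to 37.2) in DelB and, with the retained segment counted, 37.7% (37.3 to 38.1) in DelBs, both below the 40.2% of WT, which also counts the plateau bins that the deletions lack.

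The inversion asks what the window meets when it and the boundary are turned. In InvF the share of its counts with partners right of 75610000 on the reference was 21.2% (20.8 to 21.6), with 10264 of 48389 counts. This is not the share across the boundary on the InvF allele. There, partners across the boundary are those left of the inversion, with 10363 counts, and those inside it right of 75610000, with 5796. By single bin the share right of 75610000 ran from 18.6% to 22.2% in InvF and from 34.2% to 44.9% in WT. The 5 bins come from the same library within each genotype and are no replicates. Single-bin shares were not computed outside the window, so the drop does not set these bins apart from their neighbours. With partners between the inverted stretch and the deletions the counts were 848 against 3222, or 0.212 times WT (0.196 to 0.228). With the 1470 kb that both deletions remove they were 2078 against 7681, or 0.218 times (0.207 to 0.228). With the 200 kb segment they were 0.242 times WT (0.208 to 0.281), and with the first 500 kb beyond it 541 against 1128, or 0.386 times (0.347 to 0.428). A plateau was seen again, at a lower level: the 21 windows from the end of the inverted stretch to 78000000 held between 104 and 214 counts, with a median of 140.

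The drop was larger than the added 360 kb gave in pairs that no rearrangement touches. Divided by the level expected at the allele distance, partners between the inverted stretch and the deletions were at 1.01 in WT and 0.362 in InvF, a ratio of 0.359 (0.332 to 0.387). For the stretch deleted in DelB and DelBs the corresponding ratio was 0.336 (0.320 to 0.352). Against bins equally far on the other side of the window on its own allele, at 700 to 1220 kb, the partners between the inverted stretch and the deletions had 848 counts against 2120, a ratio of 0.400 (0.369 to 0.433). Farther out the side ratio was higher, at 1.24 (1.16 to 1.32) for the stretch deleted in DelB and DelBs, where WT had 3.56. It was 1.12 (0.921 to 1.36) for the 200 kb segment, an interval that holds 1, and 1.81 (1.57 to 2.09) for the first 500 kb beyond. On this allele these right partners are on the same side of the boundary as the window.

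On the left the window gained contacts in InvF. With the 500 kb next to the left breakpoint, 6619 counts stood against 1348 in WT, or 3.95 times (3.72 to 4.19) after scaling. Divided by the level expected at each allele distance the gain was 2.23 times (2.10 to 2.37). By 100 kb window the ratio rose towards the breakpoint, from 2.45 at 74300001 to 2.84, 3.48, 4.43 and 4.80 at 74700001. All partners left of the inversion together had 2.04 times the WT counts (1.97 to 2.11). Partners inside the inverted stretch, which keep their distance, changed little up to the boundary (1.04 times, 1.02 to 1.06) and were 1.40 times WT (1.34 to 1.46) beyond it.

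Counted over 100 kb partner windows with at least 50 counts in one of the libraries, and called where the scaled ratio passed 1 log2 unit, the deletions moved the window in 1 direction and the inversion in both. In DelB 20 of 78 windows were higher, all beyond the boundary, where 10.6% of partner windows were higher over all 50 kb viewpoints of the map. In the same library 1 window, starting at 71300001, was lower, against 0.0763% over all viewpoints, on 35 and 52 counts. In DelBs 12 of 80 windows were higher (8.25% over all viewpoints), all beyond the boundary, and 0 were lower (0.063% over all viewpoints). In InvF 5 of 76 windows were higher (4.56% over all viewpoints), all left of the inversion. Lower were 29 (5.88% over all viewpoints), of which 28 lay right of the boundary on the reference. The InvF windows were 6.58% of those compared, close to the share over all viewpoints for the higher ones, and 38.2% for the lower ones. The lower window on the left again started at 71300001, on 27 and 52 counts, and in both mutants it reached the limit of 50 counts through WT alone. Several higher windows of DelB and DelBs, far to the right, reached it through the mutant alone. The window starting at 80700001 held 64 counts in DelB, 51 in DelBs and 13 in WT. Such calls depend on the limit. The higher DelB windows starting from 78000001 to 78800001 reached it in WT as well. The shares over all viewpoints were taken under the same limit.

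The authors' deposited difference tables, in which most pairs are set to 0, gave values for 2969 pairs of the window for each mutant. Partners near the ends of the map were left out. The share of nonzero pairs over the rest of the map was not computed, so these counts do not set the window apart from other windows. The DelB table had 92 pairs above 0 and 0 below, and 84 of the 92 were with the first 500 kb beyond the deletion. The DelBs table had 181 above 0 and 0 below, with 56 in the retained segment and 123 in the following 500 kb. The InvF table had 64 above 0, of which 60 lay left of the boundary on the reference, and 133 below 0, all right of it on the reference. No source used here says how the tables were made.

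For comparison with the other side of the border, the same ratios were computed for the mirror window, the 50 kb that begin 40 kb beyond the boundary (75650001 to 75700000). In WT 88.2% of its counts lay beyond the boundary, against 40.2% for the Slc4a3 window. In DelB the mirror window met the first 500 kb beyond the deletion 7.90 times as often as in WT, so that the gain of the Slc4a3 window was 0.465 of it (0.426 to 0.508). On the DelB allele these partners lie 700 to 1230 kb from the mirror window and 830 to 1360 kb from the Slc4a3 window. Over the level expected at each distance, the mirror window was at 4.18 in WT and 4.46 in DelB. The Slc4a3 window was at 4.64 and 2.43. In DelBs the gains were 3.27 and 2.63 times, a ratio of 0.803 (0.733 to 0.880). With partners between the inverted stretch and the deletions the Slc4a3 ratio to WT was 1.02 times (0.974 to 1.08) that of the mirror window in DelB and 1.04 times (0.987 to 1.09) in DelBs, intervals that hold 1.

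InvF changed the mirror window more. It fell to 0.0563 times WT with partners between the inverted stretch and the deletions, against 0.212 for the Slc4a3 window, which thus kept 3.76 times (3.36 to 4.21) as large a share of its contacts. With the stretch that both deletions remove, the windows stood at 0.0766 and 0.218. Left of the inversion the mirror window rose to 5.41 times and the Slc4a3 window to 2.04 times, a ratio of 0.377 (0.355 to 0.400). On the InvF allele the mirror window is the closer one to the left breakpoint and has no boundary between it and the left flank. Over the level expected at each allele distance, the mirror window went from 1.98 in WT to 0.301 in InvF between the inverted stretch and the deletions. Left of the inversion it went from 0.523 to 1.34. The Slc4a3 window went from 1.01 to 0.362 and from 0.914 to 1.23. Distance and side of the boundary both differ between the windows and cannot be told apart here.

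**Figure D4:**
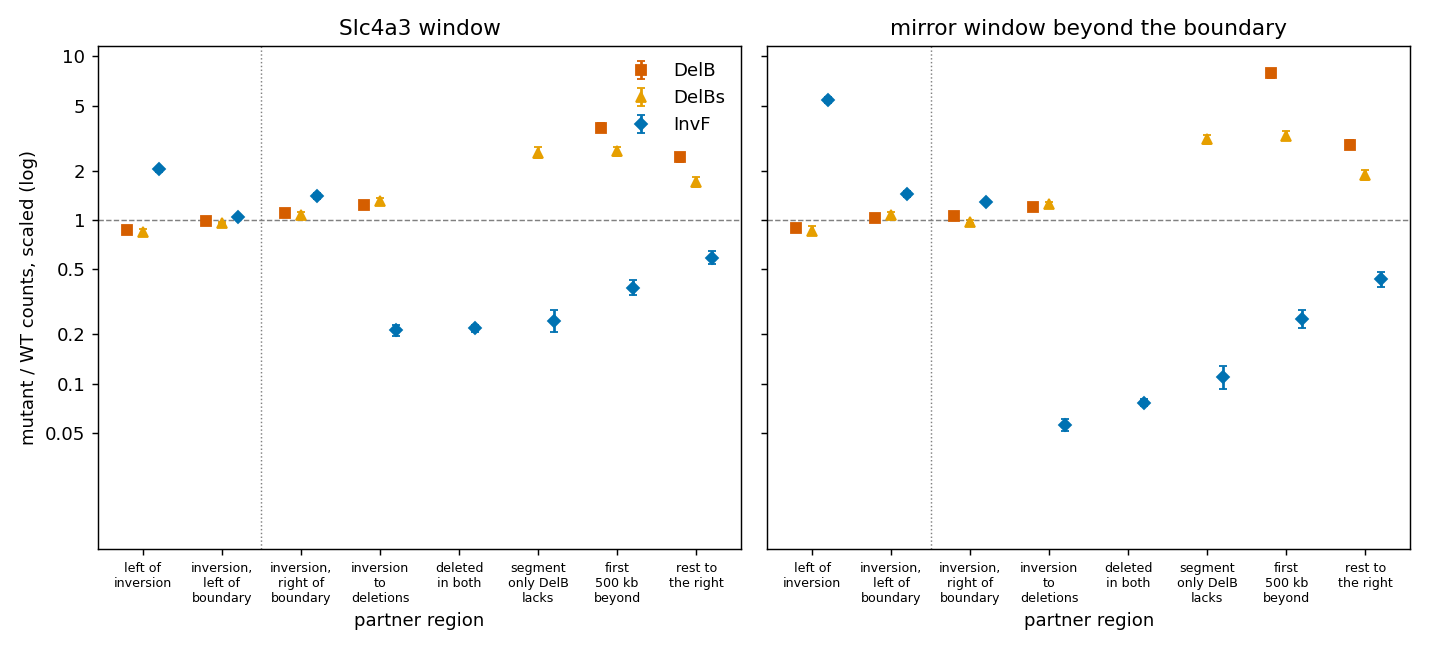
Scaled counts of each mutant over WT (log axis) by partner region, for the Slc4a3 window (left panel) and the mirror window beyond the boundary (right panel), 1 library of each genotype, with exact 95% counting intervals; the dotted line is the boundary. In InvF the Slc4a3 window stands at 0.212 between the inverted stretch and the deletions and the mirror window at 0.0563. In DelB the first 500 kb beyond the deletion stand at 3.67 and 7.90.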

How the data were processed

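The mapper was Bowtie2 2.2.6 and the genome build mm9, per the submitters' processing notes. The authors deposited raw maps as whole-number counts per pair of 10 kb bins, at mapping quality 30 per the file names, and maps of a balanced signal, made by the authors with KR balancing per the file names. For the difference maps, which the authors deposited as a score for each pair of bins, no source used here gives the construction. The handling of duplicate reads is not stated either, so counts were taken as independent in the intervals. Files held 0 columns without a sample.

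All other values were derived from the raw counts in Python 3.11.15 with numpy 2.4.6 and scipy 1.17.1, and drawn with matplotlib 3.10.9. The window, the boundary and the regions were chosen with earlier results of these data known. The regions named are the window, the mirror window, the intervals between breakpoints, and leading partners (the 5 partner windows of 50 kb on each side with the highest WT observed over expected, at least 100 kb away and with at least 50 WT counts, merged where they touch). Distances ran along each allele. Deletions were read as the longest stretch of bins below 10% of their WT share. The inversion was placed at those breakpoints, 200 kb or more apart, whose 100 kb corner blocks gained most. Libraries were scaled over untouched pairs 20 kb to 2 Mb apart. By all counts the factors would be 1.08, 1.13 and 1.18. Shares have Clopper-Pearson intervals, ratios conditional binomial and observed over expected Poisson intervals, while the mirror-window ratios have approximate log-scale ones. Window ratios used a pseudocount of 1. The mirror window, distances beyond 820 kb in the side ratio, the allele side ratios by region, the comparison at the same distance and the 100 kb windows quoted were added after values had been seen. On simulated maps the largest deviation over 26 quantities was 13.2%, and 199 of 200 changed blocks and 4 of 10047 unchanged ones passed 1 log2 unit. The quantities covered WT, DelB and DelBs, and the blocks were planted in a map of WT order, so no inversion was simulated. All simulated maps were drawn from the WT level with Poisson noise, and every planted change was larger than 1 log2 unit. The simulation therefore does not bear on unequal depth, smaller changes or the inversion. Alternatives were balanced maps, other distance limits, boundary places, scalings, expected levels and window sizes, and leaving out each bin.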

Additional observations from a re-analysis of the deposited data

Results flagged for a closer look

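For partners beyond the inverted stretch, scaled counts of the Slc4a3 window moved in opposite directions in the deletions and the inversion. Each was set against the shared WT library, with 1 library each, and the differences between mutants were not tested. Between the inverted stretch and the deletions the ratios to WT were 1.24 in DelB, 1.30 in DelBs and 0.212 in InvF. In the 200 kb segment that only DelB lacks they were 2.58 in DelBs and 0.242 in InvF. In the first 500 kb beyond, they were 3.67 in DelB, 2.63 in DelBs and 0.386 in InvF. In the rest of the map to the right they were 2.41 in DelB, 1.71 in DelBs and 0.590 in InvF. Distances on the allele differed too. The first 500 kb beyond began at 2500 kb in WT, 830 kb in DelB, 1030 kb in DelBs and 2860 kb in InvF. Over the level expected at these distances the mutants all lay below WT, at 2.43, 2.22 and 2.93 against 4.64. Between the inverted stretch and the deletions such values stayed on opposite sides of WT, at 1.21, 1.27 and 0.362 against 1.01.

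Counts with bins that a library lacks form a signal outside the comparisons. The window had 331 such counts in DelB, or 2.75% of the scaled WT level (2.45 to 3.06), and 180 in DelBs, or 1.58% (1.35 to 1.83), where a count of 0 would allow up to 3 counts.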

How the results depend on the processing

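With 1 library for each genotype and intervals of counting error alone, spread between embryos limits every comparison, and leaving out a bin is no replicate check. Levels of observed over expected depend on coverage, and ratios to WT on the scaling.

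The share beyond the boundary (WT, DelB, DelBs and InvF in turn) was 49.1%, 45.2%, 46.3% and 26.6% from 50 kb on, 43.5%, 40.6%, 41.3% and 25.6% with the boundary 20 kb to the left, 38.9%, 35.1%, 36.2% and 19.2% with it 20 kb to the right, and 34.8%, 35.8%, 37.0% and 17.4% within 2 Mb, where DelB and DelBs passed WT. Balanced maps gave 38.9%, 36.0% and 37.0% for the first 3. All these shares are split on the reference, also those of InvF. Without the bins deleted in DelB it was 25.5% in WT, 34.4% in DelBs and 17.3% in InvF. Leaving out single bins gave 38.0% to 40.9%, 34.6% to 37.1%, 35.8% to 37.9% and 20.4% to 21.1%. The near side ratio was 0.375, 0.400 and 0.427 in the first 3 with balanced maps and 0.462, 0.514, 0.515 and 0.594 with the boundary to the left. Without single bins it was 0.394 to 0.423 in WT, 0.439 to 0.482 in DelBs and 0.506 to 0.561 in InvF.

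Between the inverted stretch and the deletions, observed over expected was 0.622, 0.547 and 0.928 in WT and 0.230, 0.208 and 0.336 in InvF (balanced, coverage-corrected, expected level from all pairs), 0.962 to 1.09 in WT without single bins, and the InvF ratio to WT was 0.232 scaled to the window's own counts. For the first 500 kb beyond, DelB was 4.89 and DelBs 3.48 scaled by all counts, 4.01 and 2.91 by the window's counts, and DelB to DelBs 1.33 with balanced maps. Higher windows in DelB numbered 35 at 50 kb and 11 at 200 kb. Those in DelBs numbered 25 and 19 under the 2 scalings, 20 at 50 kb and 6 at 200 kb. InvF had 11 and 3 higher and 53 and 14 lower at 50 kb and 200 kb. The lower window of DelB went to 0 with balanced maps, both scalings, both window sizes and without single bins.

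Values whose interval lay on 1 side of 1 and that crossed it were the far side ratio of DelB (0.958 balanced), DelB and DelBs to WT left of the inversion (1.16 and 1.12 by all counts), and DelBs to WT within the inversion up to the boundary (1.27 by all counts, 1.06 by the window's counts). Among observed over expected values these were InvF left of the inversion (0.900 balanced, 0.893 coverage-corrected), the inversion up to the boundary when coverage-corrected (WT 0.945, DelB 0.932, DelBs 0.939), the stretch between inversion and deletions (DelB 0.756 and DelBs 0.812 balanced, 0.647 and 0.712 coverage-corrected), the rest to the right (DelB 0.988 and DelBs 0.900 balanced, InvF 0.944 from all pairs) and the left partner at 72800001 (DelB 0.927 balanced and 0.856 coverage-corrected, DelBs 0.984 coverage-corrected, InvF 0.980 balanced and 0.933 coverage-corrected). Values whose own interval holds 1 also crossed it: the far side ratio of WT (0.808 balanced, 0.986 without 1 bin), DelB to WT within the inversion up to the boundary (1.31 by all counts, 1.08 by the window's counts, 1.01 balanced and from 50 kb on), DelB to DelBs in the inversion beyond the boundary (0.962 balanced) and the WT value between inversion and deletions given above. The cause was not tested. All 36 alternatives of the near side ratio stayed below 1, and the 8 of the mirror-window comparison, chosen after seeing the data, stayed within their intervals. Some of these could not have differed. The near side ratio already starts at 50 kb, so the limit of 50 kb leaves it unchanged. Scaling by all counts cancels in the mirror-window comparison, so only the balanced maps tested it.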
